A study of Mus musculus with 4 samples.

Results

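Growth factor receptor tyrosine kinases are the cell-surface receptors through which a carcinoma cell reads growth factors, collagen and bridging ligands in its surroundings. Described here are 10 of them, chosen by gene symbol as the rows of the deposited table named Egfr, Erbb2, Erbb3, Met, Axl, Fgfr1, Igf1r, Pdgfra, Pdgfrb and Ddr1, out of 22063 genes listed. In ID8 cells with knockdown of USP9X, Pdgfra was 7.32-fold lower and Erbb3 1.67-fold lower than in control cells, and Axl, already the most abundant of the receptors per length, was 1.45-fold higher. These 3 kept their direction and their call under every alternative processing that was run. Egfr, Met and Igf1r were also lower by 1.37- to 1.47-fold on the counts. Egfr and Igf1r turned direction under every smooth correction of the counts that included transcript length. Both stayed lower on FPKM, which divides by a gene's own length and so cannot remove a trend across genes. Met lost its call or turned under all but 1 of the corrections that included length. The planned correction left the genes of like length and GC content with a median above 0 around all 3. Fgfr1, Erbb2 and Ddr1 did not pass the test, and Pdgfrb had no count in any library.

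A receptor tyrosine kinase binds its ligand outside the cell, pairs with another receptor and phosphorylates tyrosines on the partner's tail. Adaptor proteins dock on these tyrosines and pass the signal to the RAS-ERK and PI3K-AKT cascades. The activated receptor is then ubiquitinated, taken into endosomes and either recycled or sorted to the lysosome, so that ubiquitin ligases and deubiquitinases help to set how long it signals. USP9X is itself a deubiquitinase, encoded by an X-linked gene, and was the gene knocked down. The values below are RNA levels and carry no information on receptor protein or its ubiquitination.

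The study asked what loss of USP9X does in ovarian cancer cells. ID8 is a mouse cell line derived from ovarian surface epithelium. Poly(A) RNA was sequenced from ID8 cells with a control shRNA (shCtrl, 2 libraries) and from ID8 cells with an shRNA against USP9X (shUSP9X, 2 libraries), delivered by lentivirus from the pLKO.1-puro vector. All cells are labelled wild type, and both groups carry a vector. The shUSP9X libraries are named shUSP9X-21 and shUSP9X-22, and it is not stated whether these are replicates of 1 hairpin or different hairpins or clones, which bears on what the spread between them measures. Nor do the sources used here state which shRNA sequence the sequenced cells held, whether TGF-β1 was added or at what oxygen level they were grown. Nothing states that the libraries of a group came from separate cultures, so the p-values measure only the spread between these libraries, which may be technical. By the deposited estimated counts, depth was 17232006 and 15611363 for shCtrl and 19978889 and 17021261 for shUSP9X. A floor of 3 counts in a library corresponds to between 0.150 and 0.192 CPM (counts per 1000000 counts), and it covers counting error only.

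Usp9x, the knocked-down gene (ENSMUSG00000031010, X:13071498-13173328, plus strand, GRCm38), was counted 5169 and 4453 times in shCtrl and 390 and 346 times in shUSP9X. The groups were far apart, with a log2 fold change of -3.85 (SE 0.06, adjusted p = 4.7e-26), in the direction that the labels give. Its longest annotated transcript was 11887 nt, and the correction for GC content and length described below gave -2.19 (adjusted p = 1.3e-17). A further correction took for each gene the transcript nearest to the length that its counts and FPKM imply. That was 3019 nt for Usp9x, which then stood at -3.14 (adjusted p = 3.4e-27). Of the epithelial and mesothelial markers that define ID8 cells, Krt19 (12190, 11246, 15535 and 12647 counts in shCtrl 1 and 2 and shUSP9X 1 and 2), Krt8, Krt18, Msln, Upk3b and Wt1 were abundant in all 4 libraries. Krt8 (log2 fold change 0.92) and Krt18 (0.64) rose and Msln (-0.47) and Wt1 (-0.52) fell, with the same directions after the correction described below, and Krt19 turned from 0.12 to -0.15 with it, both called. Upk3b was 0.05 as counted (adjusted p = 0.342) and -0.10 with the correction (adjusted p = 0.0371). The part of these markers in the receptor results was not tested. Krt7, Epcam and Pax8 had at most 9 counts in any library and Cdh1 at most 57. The fibroblast markers Lum and Thy1 and the endothelial markers Kdr, Cdh5 and Emcn were at 0 throughout, while the fibroblast-associated genes Dcn and Col1a1 were expressed. Both fell as counted (-0.46 and -1.72), Dcn turning to 0.75 and Col1a1 staying at -1.73 with the correction described below. The 7 fibroblast markers, of which Dcn was the most abundant, summed to 240.1 and 251 CPM in shCtrl and 146 and 144 CPM in shUSP9X, and their part in the receptor results was not tested. Among leukocyte markers Ptprc, Adgre1, Itgam and Csf1r had 0 counts in both shCtrl libraries and low counts in both shUSP9X libraries (29 and 18 for Ptprc, 58 and 59 for Adgre1, 72 and 75 for Itgam), whereas Cd3e was at 0 and Lyz2 had at most 2 counts. The leukocyte markers summed to 4.35 and 4.36 CPM in shCtrl and 14.7 and 14.9 CPM in shUSP9X, most of it Cd68 in shCtrl, and their part in the receptor results was not tested.

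Of the 10 receptors, 9 passed the filter on low counts and were tested with edgeR's quasi-likelihood test among 11448 genes. At an adjusted p under 0.05, 5 of them were lower in shUSP9X, where 33.6% of all genes tested were lower, and 1 was higher, where 33.8% of all genes tested were higher. Altogether 6 of 9 were called, against 67.3% of all genes tested, so the share of receptors called was near the background. The 2 groups did not overlap for 7 of the 9, a pattern met by 82.3% of all genes tested. The median log2 fold change was -0.45 over the 9 receptors and 0.00 over all genes tested. With the correction for GC content and length described below these medians were -0.04 and 0.07. In bulk RNA of this kind, fewer cells that express a gene and less of its RNA in each cell cannot be told apart.

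**Figure D1:**
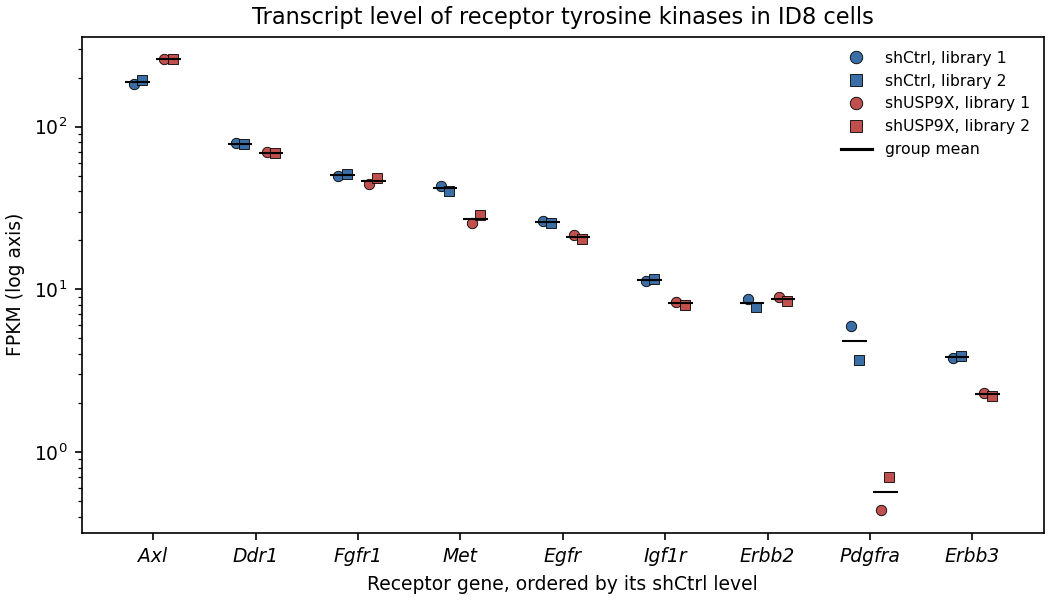
FPKM of the 9 detected receptors on a log axis, with circles for library 1, squares for library 2, blue for shCtrl, red for shUSP9X and a black line for each group mean. Axl stands above all other receptors and is higher in both shUSP9X libraries, and Pdgfra falls from 3.69 and 5.97 to 0.437 and 0.696.

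Changes were common across the transcriptome and were related to the make-up of the transcripts. The genes tested were ranked by GC content, or by length, into 10 bins of equal size. In the bin with the lowest GC content the median log2 fold change was -0.80, and it rose to 0.23 in bin 8. In the bin with the shortest transcripts the median was 0.27, and in the bin with the longest it was -0.43. By length Egfr and Igf1r lie in bin 10, Met, Erbb3 and Pdgfra in bin 9, Fgfr1 and Erbb2 in bin 8, Axl in bin 7 and Ddr1 in bin 6. For this reason each receptor is given both as counted and with an offset fitted to the smooth trend of each library on GC content and transcript length. With the offset, 3 of the 9 receptors were lower and 3 higher, and across all genes 2936 (25.6%) were lower and 4440 (38.8%) higher in place of 3843 and 3864. Whether the trend belongs to the libraries or to the cells was not tested.

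**Figure D2:**
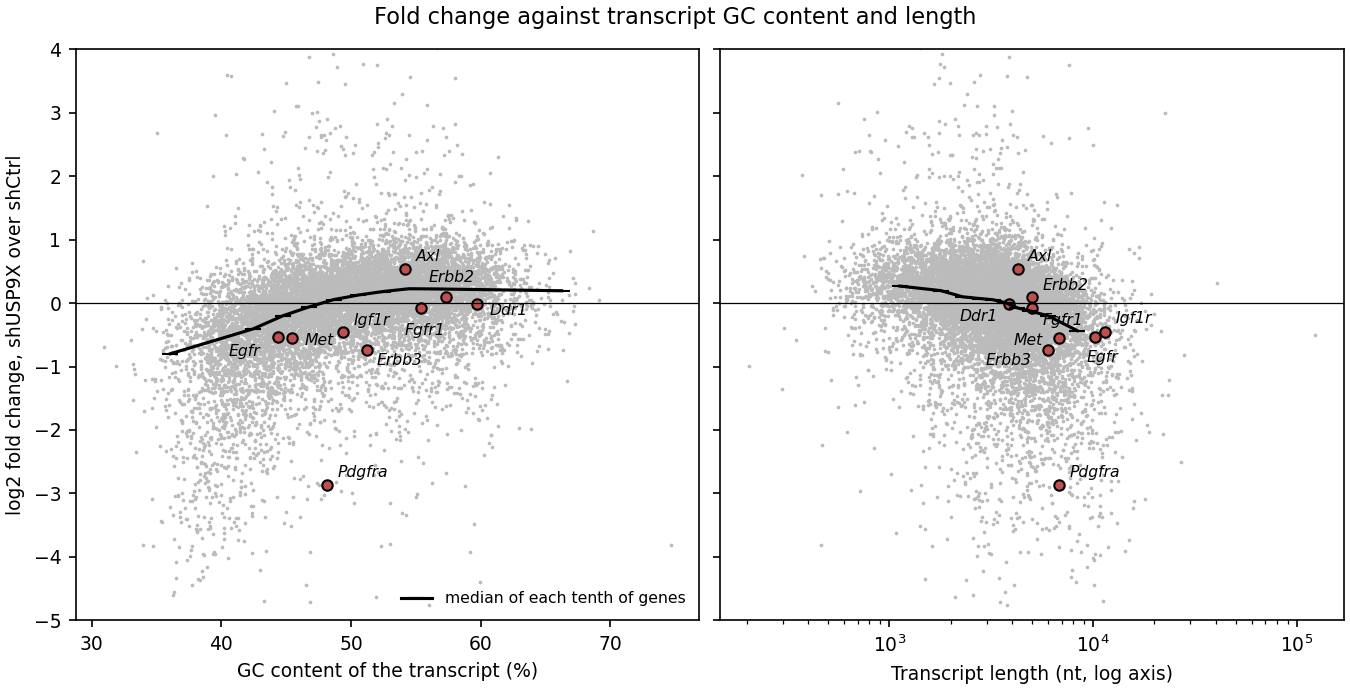
Log2 fold change (shUSP9X over shCtrl) of the genes tested against transcript GC content in percent and against transcript length in nucleotides on a log axis, with grey points for genes, red points for the receptors and black lines for the median of each of 10 bins of genes. The median falls to -0.80 at low GC content and to -0.43 for the longest transcripts, and Pdgfra lies far below both lines. The axis leaves out 71 of 11430 genes.

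The platelet-derived growth factor receptors mark mesenchymal cells and respond to PDGF dimers. Pdgfra (ENSMUSG00000029231, 5:75152292-75198215, plus strand) was counted 272 and 215 times in shCtrl and 34 and 39 times in shUSP9X, or 15.7 and 13.6 CPM against 1.72 and 2.31 CPM. The groups did not overlap, and Pdgfra had the largest difference of the 10 receptors, with a log2 fold change of -2.87 (SE 0.19, adjusted p = 6.6e-13). The 376 tested genes of like GC content and length had a median log2 fold change of -0.15 as counted and 0.14 after the offset, and under the offset for GC content and length Pdgfra stood at -2.58 (adjusted p = 2.6e-10). The implied transcript length, the length that ties the count of a library to its FPKM, was 2645 and 3734 nt in shCtrl and 3894 and 3292 nt in shUSP9X, well under the 6834 nt of the annotated transcript used for its bin and its like genes. The smallest value of any alternative, -1.87, came from log2(FPKM + 1), a scale that understates changes of low genes. Pdgfrb (ENSMUSG00000024620), its partner receptor and a pericyte marker, had 0 counts in all 4 libraries and was not detectable at this depth. The pericyte markers Rgs5 and Cspg4 had at most 5 counts in any library, while Notch3 and Mcam, which pericytes share with other cells, were lower in shUSP9X by 1.47 and 1.93 on the log2 scale, and Des (-0.23, adjusted p = 0.611) and Acta2 (-0.26, adjusted p = 0.684) did not pass the test.

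Axl, a receptor of the TAM family (named for Tyro3, Axl and Mertk) that binds GAS6 and is known for its links to mesenchymal traits and drug resistance, moved the other way. Axl (ENSMUSG00000002602, 7:25757273-25788705, minus strand) was counted 12515 and 11680 times in shCtrl and 20860 and 17815 times in shUSP9X. Scaled for library size these were 722 and 739 CPM against 1055 and 1057 CPM. Both shUSP9X libraries were above both shCtrl libraries, with a log2 fold change of 0.53 (SE 0.03, adjusted p = 5.3e-14). The 592 genes of like GC content and length had a median of 0.17 as counted and 0.08 after the offset. As counted Axl stood at percentile 82.8 of them, above their quartiles of -0.13 and 0.41. With the offset Axl was 0.43 (adjusted p = 2.1e-11). Over all 18 alternatives its log2 fold change lay between 0.35 and 0.57, and the smallest came from an offset on GC content alone. Of its relatives, Tyro3 had 433 and 404 counts against 419 and 304 and was lower (log2 fold change -0.36, SE 0.11, adjusted p = 0.0038), and Mertk had at most 7 counts.

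The promoters of these 2 receptors are shown because they had the clearest changes in opposite directions. RefSeq promoter windows (GRCm38.p6) ran from 250 bases before the start to 50 after it. They were searched for 7 of the 10 receptors, Axl, Ddr1, Egfr, Erbb2, Igf1r, Met and Pdgfra. No window was at hand for Erbb3 and Fgfr1, and Pdgfrb was left out of the search. Each sequence runs 5′ to 3′ on the strand of the gene, and capitals mark the GC box, searched as GGGCGG on both strands.
Axl, chr7:25788684-25788983, minus strand: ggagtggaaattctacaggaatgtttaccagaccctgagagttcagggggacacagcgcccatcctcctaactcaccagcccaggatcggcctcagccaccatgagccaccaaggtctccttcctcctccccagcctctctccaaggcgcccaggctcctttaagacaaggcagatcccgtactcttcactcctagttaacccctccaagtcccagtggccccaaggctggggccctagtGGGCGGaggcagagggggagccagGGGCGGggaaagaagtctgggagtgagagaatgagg
Pdgfra, chr5:75152001-75152300, plus strand: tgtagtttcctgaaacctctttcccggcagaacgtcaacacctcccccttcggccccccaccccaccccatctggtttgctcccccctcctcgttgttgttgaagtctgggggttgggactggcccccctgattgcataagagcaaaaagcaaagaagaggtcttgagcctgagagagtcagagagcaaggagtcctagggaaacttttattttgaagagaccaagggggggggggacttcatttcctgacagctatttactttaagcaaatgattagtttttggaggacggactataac
The Axl window held 2 GC boxes, beginning 10 bases before and 14 bases after the start, and the Pdgfra window held none. A GC box was found in 35.7% of all 32851 RefSeq windows of this length. It was in at least 1 window of 5 of the 7 receptors. That count is per gene, and Ddr1 had 4 windows, so it is not directly comparable with the share of windows. TATAAA was in none of the 10 windows of these 7 receptors and in 13.6% of all windows. CACGTG was found in the Met window, and in 7.15% of all windows. TGACTCA was found in the Met window and in 1 of the 4 windows of Ddr1, and in 5.2% of all windows. The GC content of the windows was 60.3% for Axl and 51% for Pdgfra, beside a median of 52.7% over all windows. These matches describe letters in the window and not binding.

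Of the EGF receptor family, Egfr, Erbb2 and Erbb3 were expressed. Erbb3, whose own kinase is weak and which signals mainly as the partner of other family members, was counted 391 and 367 times in shCtrl and 276 and 226 times in shUSP9X (ENSMUSG00000018166, 10:128567523-128589652, minus strand). That is 22.6 and 23.2 CPM against 14.0 and 13.4 CPM, with no overlap and a log2 fold change of -0.74 (SE 0.11, adjusted p = 1.4e-06). The 393 genes of like GC content and length had a median of 0.01 as counted and 0.10 after the offset. As counted Erbb3 stood at percentile 9.7 of them, below their quartiles of -0.24 and 0.28. With the offset Erbb3 was -0.68 (adjusted p = 1.0e-05).

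Egfr, the receptor for EGF, amphiregulin and related ligands, was counted 3825 and 3397 times in shCtrl and 2956 and 2539 times in shUSP9X (ENSMUSG00000020122, 11:16752203-16918158, plus strand). The levels were 221 and 215 CPM against 149.5 and 151 CPM, with no overlap and a log2 fold change of -0.54 (SE 0.04, adjusted p = 2.4e-11). The direction turned with the offset, to 0.69 (adjusted p = 2.9e-12). The 115 genes of like GC content and length had a median of -0.85 as counted, with quartiles of -1.54 and -0.35, so Egfr lay above their median and inside their spread. After the offset their median was 0.30, so the offset did not centre these genes at 0, and Egfr again lay above them. With a robust quadratic fit, described below and chosen after seeing the data, their median was 0.01. Egfr was then at 0.29 (adjusted p = 1.1e-05). The FPKM values fell less than the counts, from 26.2 and 25.5 to 21.6 and 20.3, a log2 fold change of -0.29 on log2(FPKM + 1) and -0.30 on log2(FPKM + 0.1). The transcript length implied by the count and FPKM of a library was 8478 and 8547 nt in shCtrl and 6845 and 7339 nt in shUSP9X. Relative to all genes this was a log2 change of -0.26, below percentile 10 over 9860 genes, which was -0.12.

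Erbb2, the family member with no known ligand and the preferred partner of the others, was counted 756 and 609 times in shCtrl and 897 and 719 times in shUSP9X (ENSMUSG00000062312, 11:98412470-98437716, plus strand). At 43.6 and 38.5 CPM against 45.4 and 42.7 CPM the groups overlapped, and the log2 fold change was 0.10 (95% CI -0.05 to 0.25, adjusted p = 0.261). Without the first shCtrl library it was 0.20 (adjusted p = 0.0402), and with the offset it was 0.08 (adjusted p = 0.420). Erbb4, the last member of the family, had at most 3 counts.

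Met, the receptor for hepatocyte growth factor, was counted 3996 and 3828 times in shCtrl and 3071 and 2794 times in shUSP9X (ENSMUSG00000009376, 6:17463800-17573980, plus strand). The levels were 230.4 and 242 CPM against 155 and 166 CPM, with no overlap and a log2 fold change of -0.56 (SE 0.04, adjusted p = 2.6e-11). The call ended with the offset, where the value was -0.04 (adjusted p = 0.465). The 395 genes of like GC content and length had a median of -0.38 as counted and of 0.15 after the offset. Its ligand gene Hgf had at most 1 count in any library.

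Igf1r, the receptor for insulin-like growth factors, was counted 2222 and 2058 times in shCtrl and 1914 and 1553 times in shUSP9X (ENSMUSG00000005533, 7:67952827-68233668, plus strand). That is 128 and 130.2 CPM against 96.8 and 92.2 CPM, with no overlap and a log2 fold change of -0.45 (SE 0.05, adjusted p = 1.1e-08). With the planned offset the value turned to 0.51 (adjusted p = 1.0e-08). With the robust quadratic fit it was 0.19 (adjusted p = 0.0026), beside a median of 0.25 for the genes of like GC content and length. The planned offset left these 71 genes further from 0 than those around Egfr, with a median of -0.32 as counted and of 0.67 after it. As counted, Igf1r was 0.13 below the median of these genes, inside their quartiles of -0.54 and 0.08. After the offset it was again below them, at 0.51 beside 0.67. The insulin receptor Insr, its closest relative and another long transcript, was likewise lower as counted (-0.55) and higher with the offset (0.46).

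Fgfr1, a receptor for fibroblast growth factors, was counted 3165 and 2858 times in shCtrl and 3279 and 3007 times in shUSP9X (ENSMUSG00000031565, 8:25513654-25575718, plus strand). The levels were 182 and 181 CPM against 166 and 178 CPM, which did not overlap, but the log2 fold change of -0.08 (95% CI -0.17 to 0.01) did not pass the test (adjusted p = 0.132). It passed with library size alone (-0.11, adjusted p = 0.0410) and with the offset (-0.13, adjusted p = 0.0183). Without the first shUSP9X library it was -0.02 (adjusted p = 0.818) and without the second -0.12, so its size rested on single libraries. Fgfr2 (360 and 257 counts against 163 and 169) and Fgfr3 (271 and 278 against 202 and 176) were lower, by 1.03 and 0.68 on the log2 scale, and Fgfr4 was at 0.

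Ddr1, the receptor of epithelial cells for fibrillar and basement membrane collagen, was counted 4032 and 3827 times in shCtrl and 4656 and 3916 times in shUSP9X (ENSMUSG00000003534, 17:35681567-35704621, minus strand). At 232 and 242 CPM against 236 and 232 CPM the groups overlapped, with a log2 fold change of -0.02 (95% CI -0.10 to 0.06, adjusted p = 0.686) and of -0.07 with the offset (adjusted p = 0.0868). On FPKM the groups did not overlap, at 79.0 and 77.8 in shCtrl against 69.7 and 68.8 in shUSP9X, and the log2 fold change on log2(FPKM + 1) was -0.18 (adjusted p = 0.00898). The implied transcript length of Ddr1 was 2962 and 3151 nt in shCtrl and 3345 and 3343 nt in shUSP9X, so the counts and the FPKM of this gene did not rest on the same length. For Erbb2 and Igf1r the implied length was the same in all 4 libraries, at 5012 and 11409 nt.

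**Figure D3:**
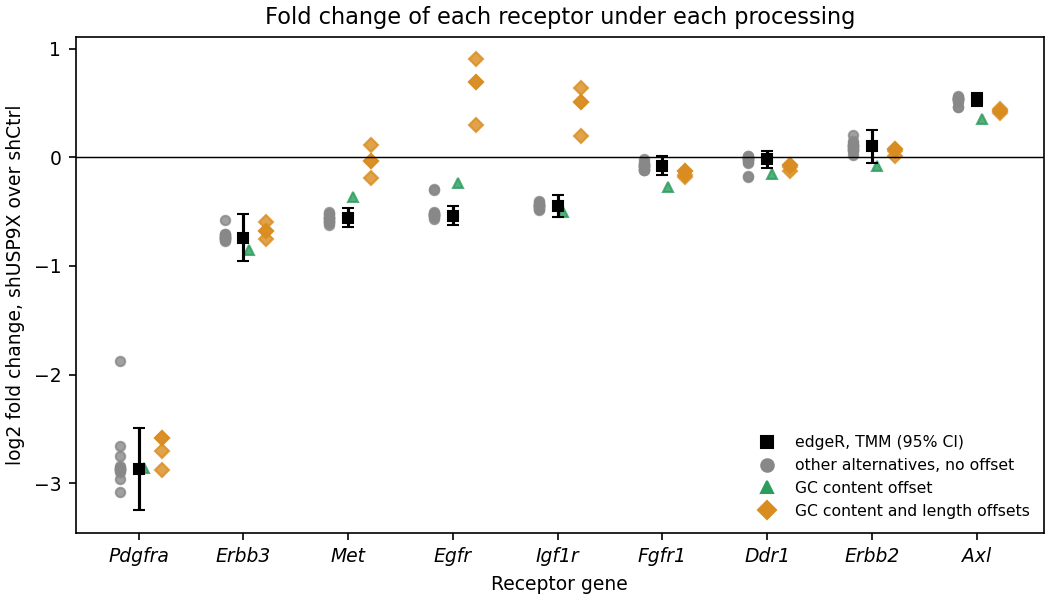
Log2 fold change (shUSP9X over shCtrl) of the 9 tested receptors, with black squares and 95% confidence intervals for edgeR on the counts, grey circles for the alternatives without an offset, green triangles for an offset on GC content and orange diamonds for offsets on GC content and length. Pdgfra, Erbb3 and Axl stay on 1 side of 0 throughout, while Egfr and Igf1r lie below 0 without a length offset and above it with one.

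Levels of different genes can be compared only per length, on FPKM. In shCtrl the order was Axl (183 and 194 FPKM), Ddr1, Fgfr1 (49.5 and 50.9), Met (43.0 and 40.4), Egfr, Igf1r (11.3 and 11.6), Erbb2 (8.75 and 7.78), Pdgfra and Erbb3 (3.77 and 3.91). Pdgfra, at 5.97 and 3.69 FPKM, overlapped Erbb3, and no other neighbours in the order overlapped. In shUSP9X the first 5 ranks were the same, Erbb2 (8.96 and 8.43) stood just above Igf1r (8.40 and 7.997), and Pdgfra dropped below Erbb3 (2.30 and 2.21). Axl was at 259 FPKM in both shUSP9X libraries.

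For the 2 receptors with the largest change, the genes with the nearest pattern over the 4 libraries were sought. Nearness was the root mean square distance of log2 CPM centred on the gene's mean. The search was limited to genes with a log2 CPM of at least 4. For Pdgfra, out of 7891 genes, they were Esco2 (distance 0.10), a cohesin acetyltransferase, Nol8, a nucleolar protein (0.10), and Nemf, a factor of ribosome quality control (0.12). Their log2 fold changes were -2.76, -2.88 and -2.95. For Erbb3, out of 7890 genes, they were Dusp16, a MAP kinase phosphatase (distance 0.008), Sgo1, a protector of centromeric cohesin (0.010), and Mpdz, a scaffold protein of cell junctions (0.013), with log2 fold changes of -0.73, -0.72 and -0.75. With 4 libraries in 2 groups, likeness mostly reflects an equal fold change.

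Among 48 other receptor tyrosine kinases, 15 were at 0 in all libraries and 23 could be tested. Of these, 14 (60.9%) were lower and 5 (21.7%) higher, against 33.6% and 33.8% of all genes tested, with a median log2 fold change of -0.36 as counted and -0.33 with the offset, beside 0.00 and 0.07 over all genes tested. With the offset 12 were lower and 7 higher, where 25.6% and 38.8% of all genes tested were. The largest falls were Epha7 (135 and 92 counts against 60 and 44, -1.26), an ephrin receptor whose value was -0.33 with no call after the offset (adjusted p = 0.199), Lmtk3, a kinase of the lemur family (-1.22, -1.03 with the offset), and Fgfr2 (-1.03, -1.06 with the offset). Flt1, a VEGF receptor, was lower, at 1680 and 1651 counts against 1272 and 1107 (-0.63), while Kdr, another VEGF receptor, was at 0. Tek, the angiopoietin receptor and itself 1 of the 7 endothelial markers listed, was lower at 172 and 165 counts against 109 and 105 (-0.80), while Pecam1, of the same list, had 9 and 19 counts against 19 and 13.

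Rises among the other receptors were fewer. Epha4 (594 and 565 counts against 1448 and 1127) rose by 1.00 on the log2 scale (SE 0.07, adjusted p = 1.6e-12), and by 1.46 with the offset. Kit, the stem cell factor receptor, rose from 130 and 112 counts to 219 and 179 (0.57, adjusted p = 0.0016). Epha2, the most abundant of these receptors, rose from 5123 and 4661 counts to 8565 and 7237 (0.55, SE 0.04, adjusted p = 4.9e-13). Csf1r, the macrophage growth factor receptor, had 0 counts in both shCtrl libraries and 17 and 13 in shUSP9X, alongside the leukocyte markers given above.

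Ligands of the EGF receptor family were expressed in the same cells. Of the 8 tested, 4 (50%) rose and 2 (25%) fell, beside 33.8% and 33.6% of all genes tested. Together the share called was near the 67.3% of all genes tested that were called. With the offset 4 were higher and 1 lower, beside 38.8% and 25.6% of all genes tested. Areg, the gene for amphiregulin, went from 401 and 309 counts to 835 and 717 (log2 fold change 0.99, SE 0.09, adjusted p = 4.2e-10). Hbegf, the gene for heparin-binding EGF-like growth factor, went from 336 and 311 to 728 and 646 (0.94, SE 0.09, adjusted p = 1.0e-09). Btc, the gene for betacellulin and the most abundant ligand, rose from 1958 and 1597 counts to 3232 and 2849 (0.64), and Ereg, the gene for epiregulin, from 1755 and 1543 to 2699 and 2315 (0.46). All 4 were also higher with the offset, at 0.79 for Areg, 0.79 for Hbegf, 1.71 for Btc and 1.35 for Ereg. Egf itself was scarce and fell from 21 and 16 counts to 4 and 2 (-2.72, SE 0.63, adjusted p = 0.0005). Nrg1, a ligand of ERBB3, was lower as counted (-0.44, adjusted p = 0.0121), but the call was lost with the offset, where its value was 0.21 (adjusted p = 0.208).

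Of the 8 ligand genes tested for the TAM, FGF, IGF and PDGF receptors, 4 were lower and none higher, against 33.6% and 33.8% of all genes tested. With the offset 2 TAM, 1 FGF and 2 PDGF ligand genes were lower and 1 IGF ligand gene was higher. Beside these, 25.6% and 38.8% of all genes tested were lower and higher. Pros1, the gene for protein S and a ligand of the TAM family, fell from 26 and 14 counts to 6 and 7 (-1.74, SE 0.54, adjusted p = 0.00635). Gas6, the AXL ligand, had 98 and 100 counts against 97 and 79 and did not pass the test as counted (-0.32, adjusted p = 0.164) but was lower with the offset (-0.53, adjusted p = 0.0208). Of 18 genes for fibroblast growth factors 10 were at 0 and 2 could be tested. Fgf2 fell from 13 and 14 counts to 2 and 5 (-2.05, adjusted p = 0.00943), a call that was lost with the offset (adjusted p = 0.109). Fgf18, at 133 and 138 counts against 132 and 130, did not pass the test as counted (-0.19, adjusted p = 0.322) but was lower with the offset (-0.52, adjusted p = 0.0090). Of the PDGF genes, Pdgfa fell from 256 and 241 counts to 200 and 179 (-0.53, SE 0.13, adjusted p = 0.00069), and Pdgfb by 0.20 on the log2 scale (adjusted p = 0.00359). Both were also lower with the offset, at -0.76 and -0.33. Pdgfc, at 390 and 366 counts against 537 and 379, did not pass the test (0.13, adjusted p = 0.288).

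Collagen genes whose products bind DDR1 were lower in 3 of the 4 cases tested, beside 33.6% of all genes tested. Col1a1, which encodes a chain of type I collagen, was counted 1174 and 1245 times in shCtrl and 452 and 362 times in shUSP9X (-1.72, SE 0.08, adjusted p = 4.5e-16). The basement membrane collagens Col4a1 and Col4a2 were lower by 0.23 and 0.16 on the log2 scale. Igf1, at 47 and 38 counts against 39 and 27, did not pass the test as counted (-0.51, adjusted p = 0.160) and was higher with the offset (0.89, adjusted p = 0.0171), and Igf2 had at most 1 count. Of the binding proteins that hold IGFs outside the cell, Igfbp7 was lower (-0.25, and -0.54 with the offset) and Igfbp6 higher (0.29), the latter with no call after the offset (0.02, adjusted p = 0.802).

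**Figure D4:**
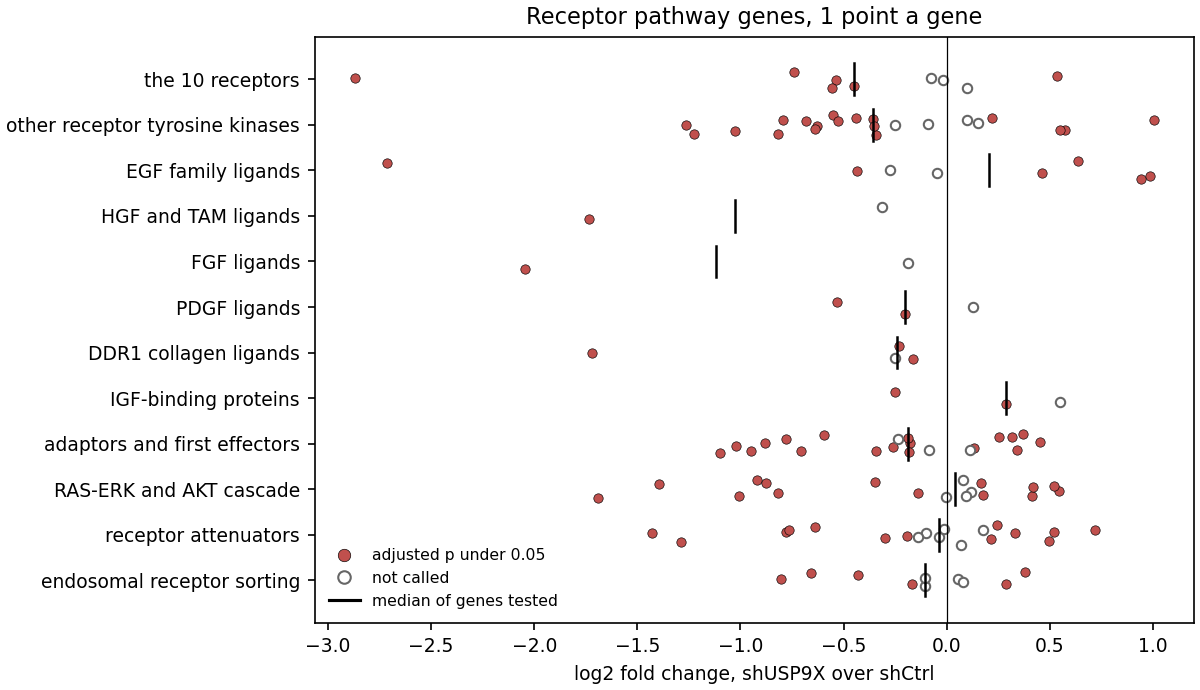
Log2 fold change (shUSP9X over shCtrl) of the tested genes in each pathway list drawn. Filled points are genes at an adjusted p under 0.05, open points the others, and a line marks the median of the genes tested. Pdgfra and Egf are the lowest points and Epha4, Areg and Hbegf the highest. Csf1r, with 0 counts in shCtrl, and Igf1, the only IGF ligand gene tested, are not drawn.

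Inside the cell, 12 of 21 tested adaptors and first effectors (57.1%) were lower and 6 (28.6%) higher as counted, against 33.6% and 33.8% of all genes tested. With the offset 8 were lower and 10 higher, where 25.6% and 38.8% of all genes tested were. Crk, an adaptor that docks on phosphotyrosine, fell from 5113 and 4738 counts to 2761 and 2325 (-1.10, SE 0.04, adjusted p = 3.3e-18) and was -0.75 with the offset. Pik3r1, the regulatory subunit of PI3 kinase, was -1.02 and -0.41 with the offset, and Gab2, a docking protein, -0.95 and -0.88. Src rose by 0.45 on the log2 scale (SE 0.05, adjusted p = 2.9e-09; 0.39 with the offset), Irs1, the substrate of the IGF1 and insulin receptors, by 0.37 (1.12 with the offset), and Pik3r2 by 0.34 (0.26 with the offset).

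In the RAS-ERK and AKT cascade, 8 of 18 genes (44.4%) were lower and 6 (33.3%) higher as counted, beside 33.6% and 33.8% of all genes tested. With the offset 3 were lower and 12 higher, beside 25.6% and 38.8% of all genes tested. Rasa1, a negative regulator of RAS, fell from 1200 and 1075 counts to 406 and 372 (-1.69, SE 0.08, adjusted p = 1.5e-16) and was -1.08 with the offset. Braf, at -1.40 as counted, was -0.06 with the offset (adjusted p = 0.578), and Nf1, another negative regulator of RAS with a long transcript, turned from -1.01 to 0.27. Hras (0.55), Akt2 (0.52) and Akt1 (0.42) were higher, and with the offset they were 0.35, 0.44 and 0.26.

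The genes that damp receptors or sort them in endosomes were mixed. Of 19 tested attenuators, 7 (36.8%) were lower and 6 (31.6%) higher, shares near the background of 33.6% and 33.8%, and with the offset 5 were lower and 8 higher, beside 25.6% and 38.8% of all genes tested. Sh3kbp1, a partner of CBL in receptor uptake, fell from 1096 and 934 counts to 468 and 364 (-1.43, SE 0.08, adjusted p = 1.3e-14; -0.67 with the offset). Spry1, a feedback inhibitor, fell from 157 and 152 to 95 and 46 (-1.29, SE 0.21, adjusted p = 5.7e-06), and Spred1, a further inhibitor of RAS activation, was -0.78 as counted but 0.13 with the offset. Errfi1, a direct inhibitor of the EGF receptor family, rose from 917 and 775 counts to 1643 and 1433 (0.72, SE 0.06, adjusted p = 7.6e-11; 0.68 with the offset). Rnf41, a ubiquitin ligase for ERBB3, rose by 0.52 on the log2 scale, and Spry4 by 0.50. The ubiquitin ligase gene Cbl was not called as counted (-0.10, adjusted p = 0.0982) and was 1.01 with the offset.

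Of 10 endosomal sorting genes, 4 were lower and 2 higher as counted, together near the 67.3% of all genes tested that were called, and with the offset 2 were lower and 5 higher, beside 25.6% and 38.8% of all genes tested. Usp8, a deubiquitinase that acts on receptors in endosomes, fell from 2385 and 2138 counts to 1750 and 1419 (-0.66, SE 0.05, adjusted p = 8.5e-12; -0.51 with the offset). Eps15, an endocytic adaptor, was -0.80 as counted and -0.01 with the offset (adjusted p = 0.845), and Stam, a subunit of the first sorting complex, turned from -0.43 to 0.50. Hgs, the partner of STAM in that complex, rose by 0.38 on the log2 scale and Tsg101, of the next complex, by 0.29, and both were also higher with the offset.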

How the data were processed

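RNA of 4 ID8 libraries, 2 shCtrl and 2 shUSP9X, was grouped by the condition in the labels. The submitters' processing notes name fastp 0.18.0, Bowtie2 2.2.8, HISAT2, StringTie 1.3.1 and RSEM, and the study's methods name GRCm38. The authors deposited estimated counts per gene and library, not normalized, of which 6.39 to 6.69% were not whole, and FPKM values scaled for transcript length and library size. The receptors, lists and tests were chosen with earlier results of these data known.

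In edgeR 4.0.16 under R 4.3.3, counts were rounded, passed through filterByExpr, scaled by TMM and compared by the two-sided quasi-likelihood test, Benjamini-Hochberg adjusted over 11448 genes. The code was tested on simulated data. Within groups, counts differed by more than sampling noise (chi-square per gene 3.35 and 2.23). Coordinates, GC content and length came from GENCODE M21, known for 99.8% of genes tested. Genes of like GC content and length lay within 2 percentage points and 0.3 on the log2 length scale. Named genes were the receptors, Usp9x, tested ligands that passed, and up to 3 largest falls and rises of each list at an adjusted p under 0.05 with no overlap. Other genes were named after their values were seen.

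Alternatives were DESeq2 1.42.0, other scalings and filters, a replicate block, limma 3.58.1 on log2(FPKM + 1) and log2(FPKM + 0.1) where the mean FPKM reached 1, a loess offset (span 0.3) on GC content and length, and each library left out. Further offsets, on GC content alone, on the transcript nearest to the implied length, and by a robust quadratic fit (span 0.1), were chosen after seeing the data.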

Additional observations from a re-analysis of the deposited data

How the results depend on the processing

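Pdgfra, Erbb3, Axl and Usp9x kept their direction and their call under all 18 alternatives, between -3.08 and -1.87, -0.86 and -0.57, 0.35 and 0.57, and -3.91 and -2.19 on the log2 scale. The number of genes changed lay between 6169 and 7821. Under the offset for GC content and length, with or without the replicate block, 3 receptors were lower and 3 higher. Egfr was 0.69 with both, Igf1r 0.51 with both (0.507 and 0.506), Met -0.036 and no longer called, and Fgfr1 -0.13 and called. With the offset on the transcript nearest to the implied length 4 receptors were lower and 4 higher, with Egfr at 0.90, Igf1r at 0.64, Met at 0.12, Fgfr1 at -0.16 and Ddr1 at -0.093. With the robust quadratic offset 5 were lower and 3 higher, with Egfr at 0.29, Igf1r at 0.19, Fgfr1 at -0.19 and Ddr1 at -0.13. There Met was -0.20 and called, and the genes of like GC content and length had a median of 0.01 around Egfr and of 0.25 around Igf1r. After the planned offset it was 0.30 around Egfr, 0.15 around Met, 0.67 around Igf1r, 0.31 around Usp9x, 0.14 around Pdgfra, 0.10 around Erbb3 and 0.08 around Axl, beside 0.07 over all genes. With the offset on GC content alone 7 receptors were lower, with Fgfr1 at -0.27 and Ddr1 at -0.15 called. Lower and higher calls among all genes tested were 25.6 and 38.7% with the nearest-transcript offset, 29.6 and 32.9% with the quadratic one and 28.1 and 36.9% with GC content alone. Hence the sign of Egfr and Igf1r turned only where length was in the offset. Library size alone gave Fgfr1 at -0.11, and FPKM gave Ddr1 at -0.18 with either pseudocount (-0.177 and -0.179), all called. Leaving out each library in turn gave 1 to 2 receptors higher, Erbb2 at 0.021 to 0.203 and Fgfr1 at -0.122 to -0.021. The replicate block called 7665 genes and changed no call of a receptor. Same-numbered libraries did not deviate together (correlation -0.04). The cause of these changes was not tested beyond the length term. Depth limits Pdgfrb, which had no count, and the ligands with fewer than 30 counts.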
